A study of Mus musculus with 10 samples.

Results

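Collagens and laminins are the trimeric proteins from which the fibrils and sheets of the muscle connective tissue are built. The genes of their chains were compared here between the slow-twitch soleus of the calf and the fast-twitch tibialis anterior (TA) at the front of the lower leg of mice. Members were all protein-coding genes whose Ensembl symbol is Col, a number, a and a number, or Lama, Lamb or Lamc with a number. This gave 55 genes, and 50 of them were among the 20009 genes with counts in the series. Of the 55, 17 are basement membrane chains (type IV collagen and laminins), 11 are fibrillar collagen chains (types I, II, III, V, XI, XXIV and XXVII) and 27 are other collagen chains. The RNA sequencing libraries were 10 in number, 1 from each muscle for 3 male and 2 female replicates, all wild type, and no strain, age or treatment was given in the labels. Libraries with the same sex and replicate number are called 1 mouse below. The names of the deposited tables give both muscles of a number the same code and each of the 5 numbers a code of its own, but the sample labels do not say that a code is an animal, so p-values measure the spread between these libraries.

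Each collagen molecule is wound from 3 chains. Fibrillar collagens, chiefly types I and III with type V at the core, form the tensile fibrils of tendon and of the sheaths around muscle fibers and bundles. Type IV collagen and the laminins instead form the flat networks of the basement membrane, which wraps every muscle fiber, capillary and nerve ending. Laminins join an alpha, a beta and a gamma chain, and laminin on the muscle fiber surface is held by dystroglycan and integrins. Type VI collagen forms beaded filaments that link both layers.

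Sequences near the starts of some of the chains are shown. Type IV genes are among them because they lie head to head in pairs, so that partner chains start beside each other. The starts of Col4a1 and Col4a2 overlap by 22 bases, and those of Col4a3 and Col4a4 are 71 bases apart. For 4 further genes the 250 bases before the RefSeq start are given (GRCm38.p6, 5′ to 3′ along the gene). Of the 55 members, 40 had an entry in the RefSeq promoter table, and Col4a3 and Col1a1 had none. Capitals mark matches on either strand to 3 motifs of core promoters. The first, known as the TATA box, was searched as TATAAA. The second is spelled by its name, the CCAAT box. The third, the GC box, was searched as GGGCGG.
Col4a1 and Col4a2 overlap, chr8:11312805-11312826, plus strand: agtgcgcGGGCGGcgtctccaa
Between Col4a4 and Col4a3, chr1:82586850-82586920, minus strand: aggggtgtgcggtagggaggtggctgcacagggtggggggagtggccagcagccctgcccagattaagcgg
Lama5, chr2:180225860-180226109, minus strand: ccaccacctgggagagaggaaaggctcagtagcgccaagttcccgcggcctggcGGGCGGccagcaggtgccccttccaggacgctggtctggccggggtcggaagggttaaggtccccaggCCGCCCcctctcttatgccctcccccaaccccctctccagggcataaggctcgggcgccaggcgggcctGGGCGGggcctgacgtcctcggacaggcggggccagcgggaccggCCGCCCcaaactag
Col23a1, chr11:51289670-51289919, plus strand: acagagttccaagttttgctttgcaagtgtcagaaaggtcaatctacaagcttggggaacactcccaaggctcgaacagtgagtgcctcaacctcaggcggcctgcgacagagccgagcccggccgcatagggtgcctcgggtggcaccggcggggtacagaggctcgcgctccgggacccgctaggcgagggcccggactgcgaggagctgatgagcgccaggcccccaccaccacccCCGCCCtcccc
Col3a1, chr1:45311288-45311537, plus strand: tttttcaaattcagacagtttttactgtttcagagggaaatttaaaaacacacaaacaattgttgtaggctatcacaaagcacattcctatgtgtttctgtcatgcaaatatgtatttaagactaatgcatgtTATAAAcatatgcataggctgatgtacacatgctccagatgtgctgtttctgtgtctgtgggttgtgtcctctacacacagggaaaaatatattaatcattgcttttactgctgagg
Col5a3, chr9:20815068-20815317, minus strand: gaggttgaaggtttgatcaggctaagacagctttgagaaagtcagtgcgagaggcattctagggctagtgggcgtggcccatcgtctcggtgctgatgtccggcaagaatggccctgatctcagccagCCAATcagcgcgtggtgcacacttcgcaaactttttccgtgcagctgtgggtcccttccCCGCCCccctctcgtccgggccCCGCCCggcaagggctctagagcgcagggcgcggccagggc
Lama5 held 4 GC boxes and Col23a1 held 1. Col3a1 held 1 TATA box, and Col5a3 held 1 CCAAT box and 2 GC boxes. Windows of 4 called chains are not printed. Of these, Lamb2 and Col4a4 held no match to any motif, Col8a2 held 4 GC boxes, and Col4a2 held 1 CCAAT box and 2 GC boxes. Among 32851 RefSeq windows of the same 250 bases, 12.4% held TATAAA at least once, 33.8% held CCAAT and 32.7% held GGGCGG. A single match is thus not particular to these genes, and how often a window holds 4 was not counted. Matches are by letters alone, and their distance from the start was not weighed.

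The members drew 49790 counts over the 10 libraries, and 66.5% of them fell on Col1a1, Col1a2 and Col3a1. After a filter on low counts 23 members were tested, 8 basement membrane, 8 fibrillar and 7 other chains. Of the remaining 32, 5 had no count in any library and 27 had counts but did not pass. Total counts per library were 726414 to 961844, and genes of slow fibers (8 of 8) and fast fibers (7 of 8) differed in the direction of the muscle labels. One library stood apart: soleus of female 2 had counts on 15070 genes, against 11073 to 11858 in the other soleus libraries, and 8.21% of its counts lay on retained-intron transcripts, against 5.65% to 7.25%. It also had 92 counts on the Y-linked gene Kdm5d and 18 on Uty, against 9 to 23 and 1 to 6 in the male libraries, but the other female libraries had 6 to 11 and 0 to 5, so these genes did not track the sex labels. The Y-linked gene Ddx3y did, with 0 counts in every female library and 6 to 20 in every male library. Calls and fibrillar values that change without this library are given both ways.

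Levels below are CPM, counts scaled to library size with TMM factors, listed for males 1, 2 and 3 and then females 1 and 2. Differences are given on the log2 scale as soleus relative to TA, with n = 5 libraries per muscle, and values below 0 mark genes with more counts in TA. Their SE (standard error) is the one implied by edgeR's F statistic, the size of the difference divided by the square root of F. A gene was called at a Benjamini-Hochberg adjusted p under 0.05 from edgeR's quasi-likelihood test over 5115 genes. In this comparison 22% of all genes were called, 11% higher in soleus and 11% higher in TA. Of the 23 tested members 7 were called, 2 higher in soleus and 5 higher in TA.

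**Figure D1:**
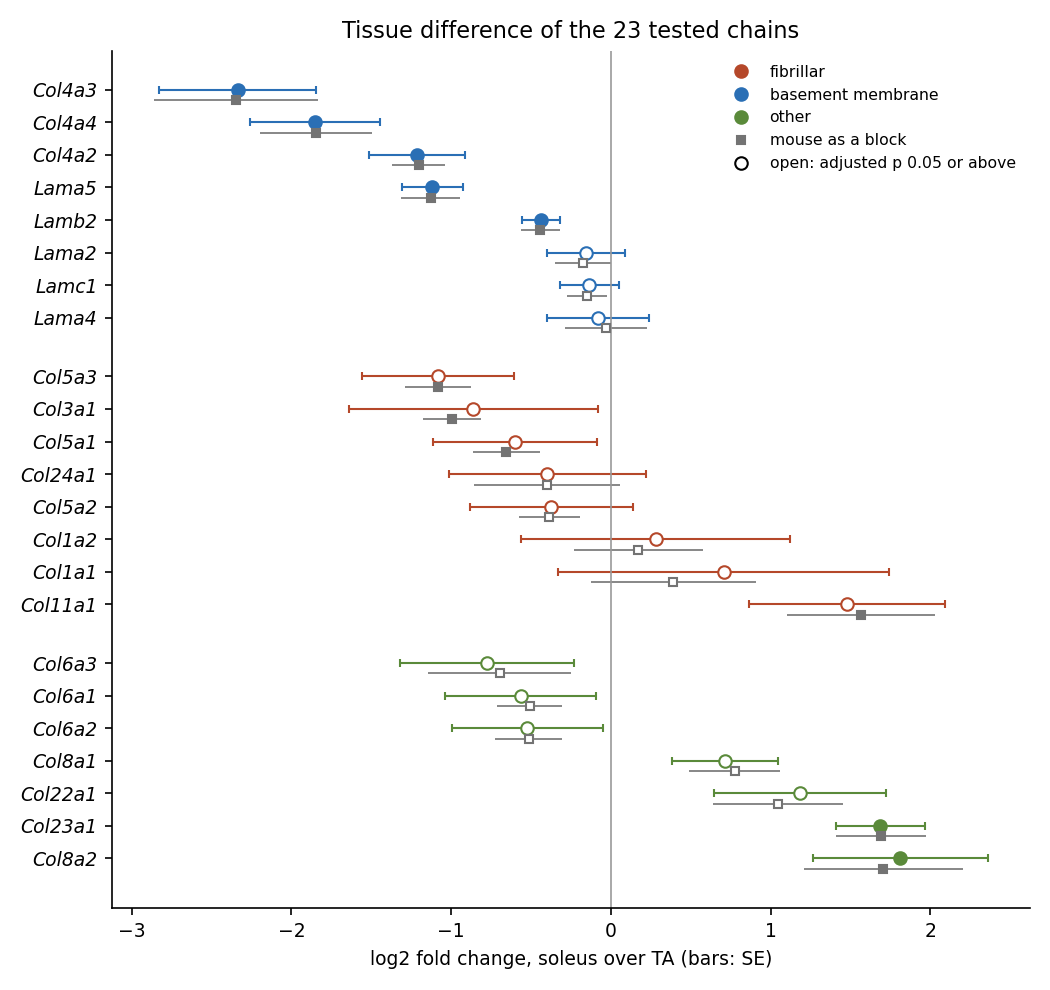
Log2 fold change of soleus over TA for the 23 tested chains (circles, bars are SE, filled where the adjusted p was under 0.05) with the fit that uses the mouse as a block (grey squares, filled likewise). All 8 basement membrane chains lie left of zero, 5 of them filled, while fibrillar circles are open and 4 fibrillar squares are filled.

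Basement membrane chains were higher in TA in 5 of 8 tested cases and in none were they higher in soleus. All 8 had a negative fold change, with a median of -0.78, against 0.01 over all tested genes. The 5 were Col4a2, Col4a3, Col4a4, Lama5 and Lamb2. Soleus and TA libraries did not overlap for 3 of the 8 (Col4a3, Lama5 and Lamb2), against 15.1% of all tested genes. The count of 5 was the same without soleus of female 2 and without both libraries of that mouse. A bulk library cannot tell fewer cells of a type from less RNA per cell, here or in any result below.

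Type IV collagen differed most among the basement membrane genes. Col4a2 (chromosome 8, 11312805 to 11449287) encodes the alpha 2 chain, which joins a pair of alpha 1 chains in the common network found in nearly all basement membranes. Its level was 214.0, 386.8, 154.9, 230.6 and 153.0 CPM in soleus and 657.4, 828.3, 432.3, 551.4 and 223.3 CPM in TA. Every mouse was higher in TA, and the muscles overlapped only through TA of female 2, which lay below 2 soleus libraries. The difference was -1.21 (SE 0.30, edgeR adjusted p = 0.0125).

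Col4a3 and Col4a4 encode the alpha 3 and alpha 4 chains, which with alpha 5 form a second network best known from the kidney filter, and which also occurs at the nerve-muscle synapse. Col4a3 (chromosome 1, 82586921 to 82722059) was at 0, 5.35, 3.69, 3.95 and 2.28 CPM in soleus and 23.7, 20.9, 15.03, 12.8 and 8.05 CPM in TA. No TA library was as low as any soleus library, and the 0 in soleus of male 1 allows up to 3.51 CPM (3 counts, counting error only). The difference was -2.34 (SE 0.49, edgeR adjusted p = 0.00472), from 12 counts in soleus and 71 in TA.
Col4a4 (chromosome 1, 82448423 to 82586849) was at 10.5, 13.4, 8.60, 5.27 and 0 CPM in soleus and 33.8, 38.2, 25.4, 22.1 and 11.1 CPM in TA. It was higher in TA in 5 of 5 mice, with overlap only between TA of female 2 and soleus of male 2, and the 0 in soleus of female 2 allows up to 3.43 CPM. The difference was -1.85 (SE 0.41, edgeR adjusted p = 0.00618).
These neighbours, whose starts face away from each other across the 71 bases printed above, thus had the same direction in every mouse. That is not particular to them. Col4a2, Lama5, Lamb2 and Lamc1, which lie elsewhere in the genome, were also higher in TA in every mouse, while Lama2 and Lama4 were not.

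The partner chains of these 3 genes could not be compared. Col4a1, the alpha 1 chain, had 14 counts in all, 7 in each muscle, although it shares a molecule with Col4a2, which had 3275. Only 2.20% of the 31-base words of the full-length transcript Col4a1-201 occur in no other annotated transcript, against 77.3% for Col4a2-201. Col4a5, the alpha 5 chain, had 0 counts, and 6.76% of its words belong to 1 transcript. Col4a6, an alpha 6 chain that pairs with alpha 5, also had 0 counts, with a share of 66.5% for Col4a6-201. Across the 285 annotated member transcripts, 0 of 17 with no word of their own had a count. Transcripts with over 100 such words held 99.8% of member counts, but only 91 of these 175 transcripts had a count. Col4a1-201 is among the 175, with 145 words of its own and 6 counts. The longest Col4a5 transcript is too, with 225 such words and 0 counts. How far the counts of Col4a1 and Col4a5 follow their RNA was not tested, and levels are not compared between genes here.

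**Figure D2:**
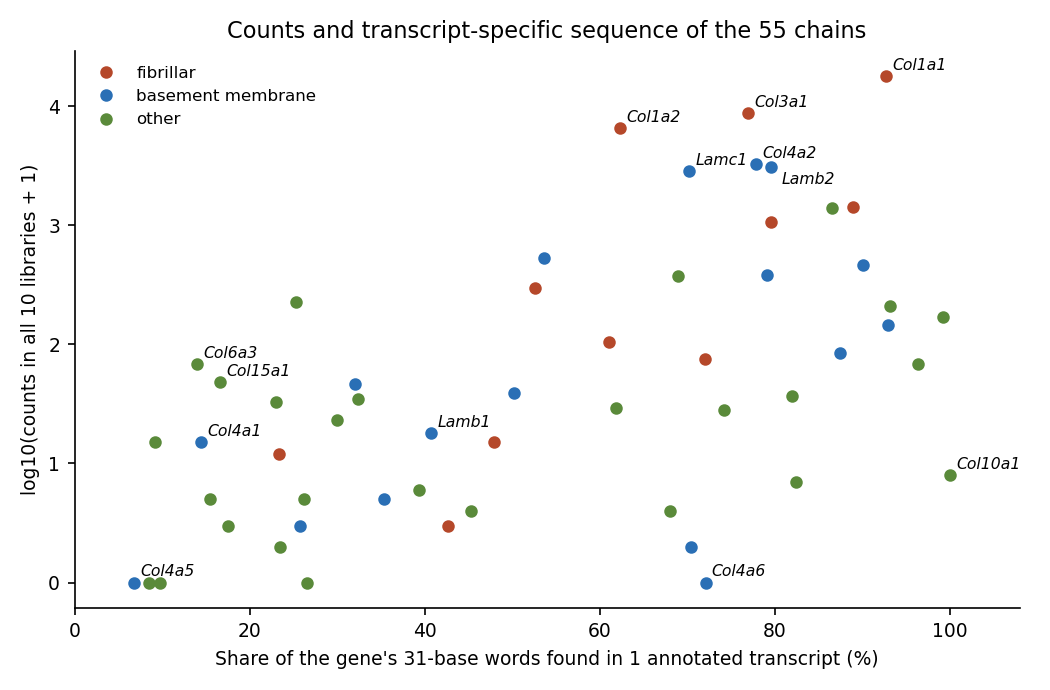
Counts of the 55 chains over all 10 libraries (log10 of counts plus 1) against the share of each gene's 31-base words found in 1 annotated transcript, with colours for the 3 classes. Col4a2 (77.8%, 3275 counts) and Col4a1 (14.5%, 14 counts) lie far apart on both axes, and Col4a6 shows that a gene with many such words can still have no count.

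Among laminins, Lama5 and Lamb2 were higher in TA and 3 others were not called. Lama5 (chromosome 2, 180176373 to 180225859), the alpha 5 chain typical of blood vessel and epithelial basement membranes, was at 39.8, 32.1, 20.9, 39.5 and 36.5 CPM in soleus and 78.9, 77.6, 67.0, 60.5 and 82.5 CPM in TA. The lowest TA library was above the highest soleus library. The difference was -1.12 (SE 0.19, edgeR adjusted p = 0.00111).
Lamb2 (chromosome 9, 108479736 to 108490530), the beta 2 chain concentrated at the neuromuscular synapse, was at 278.3, 283.7, 303.6, 365.1 and 292.3 CPM in soleus and 402.6, 399.7, 389.5, 428.1 and 440.6 CPM in TA. Its libraries did not overlap either, although the step was small (-0.44, SE 0.12, edgeR adjusted p = 0.0184). Lamb2 was lost from the calls without soleus male 1 (adjusted p = 0.0574), without TA male 1 (0.0525) or with no filter on low counts (0.126).

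The chains that complete these molecules had smaller differences. Lamc1, the gamma 1 chain present in most laminins, was at 341.5, 360.0, 310.9, 382.2 and 198.7 CPM in soleus and 407.1, 373.0, 312.1, 392.0 and 262.5 CPM in TA (-0.13, SE 0.19, adjusted p = 0.668). It was a little higher in TA in 5 of 5 mice, but the muscles overlapped. Lama2, the alpha 2 chain of the muscle fiber surface whose loss causes a congenital muscular dystrophy, averaged 59.5 ± 19.2 CPM in the soleus libraries and 66.3 ± 17.2 CPM in those of TA (SD, n = 5 each). Its difference was -0.15 (SE 0.25, adjusted p = 0.717). Lama4, the alpha 4 chain of vessels and nerve, differed by -0.08 (SE 0.32, adjusted p = 0.897), and its sign turned when TA male 2, soleus male 3 or TA female 1 was left out.

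**Figure D3:**
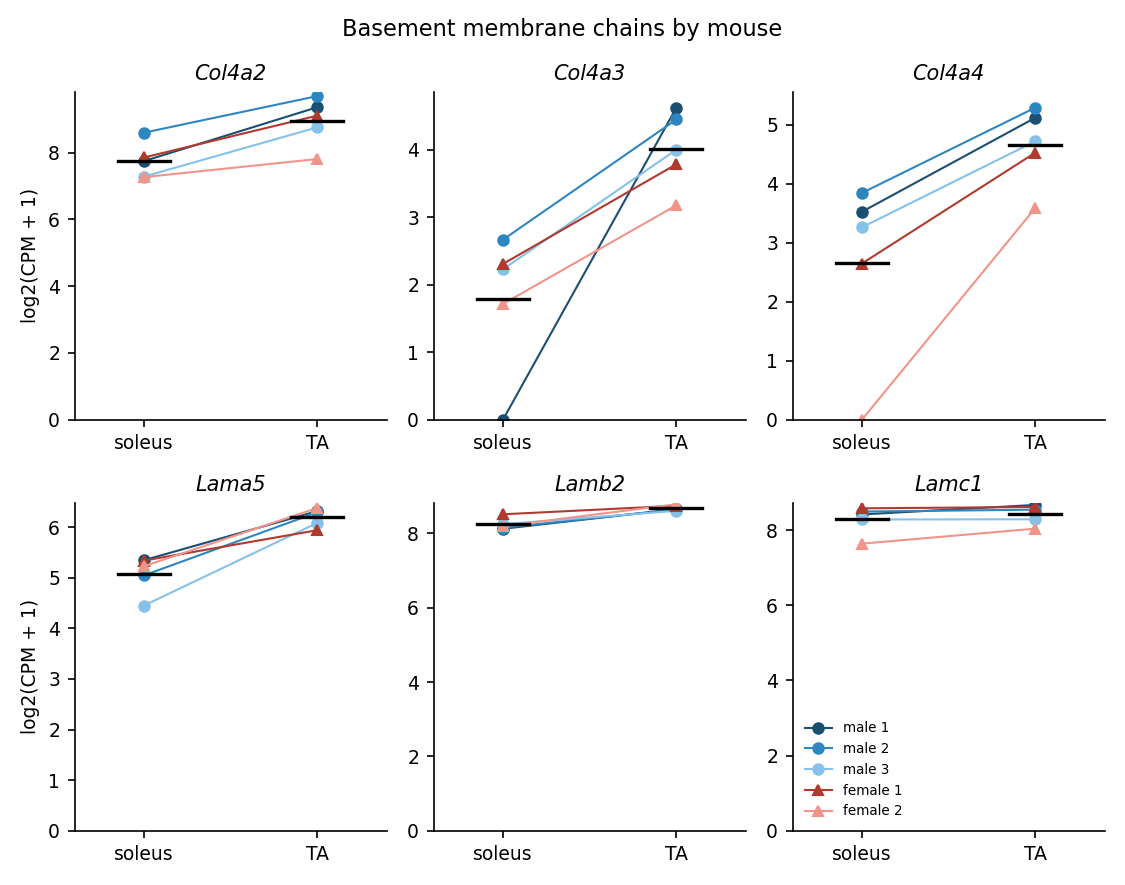
Levels of 6 basement membrane chains on a log2(CPM + 1) scale in soleus and TA, with a line for each mouse (circles male, triangles female) and a black bar for the mean of 5 libraries. Lines rise from soleus to TA in all 5 mice for each of these 6 genes, steeply for Col4a3 and least for Lamc1.

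Some markers of blood vessels were also higher in TA. The summed level of 10 endothelial genes was 279.0 to 337.3 CPM in soleus and 352.1 to 915.1 CPM in TA, and 3 of 5 tested (Cdh5, Kdr and Flt1) were higher in TA. The list did not move as one: Vwf, the von Willebrand factor of endothelium, had a mean of 11.8 CPM in soleus and 5.23 in TA and was not called (1.17, SE 0.43, adjusted p = 0.0688). For 9 genes of smooth muscle and pericytes the sums were 420.4 to 661.9 CPM in soleus and 610.6 to 1199 CPM in TA, with 2 of 4 tested (Rgs5 and Notch3) higher in TA. No gene of either list was at 0 in all libraries. Their part in the type IV and laminin differences was not tested.

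Of the fibrillar chains 0 of 8 were called by edgeR, with 2 at an unadjusted p under 0.05, and DESeq2 called 0. Their median difference was -0.38, with 3 positive and 5 negative values. Mice differed widely within 1 muscle: the median SD of log2(CPM + 1) was 1.39 in soleus and 1.17 in TA, against 0.44 and 0.39 over all tested genes. Without female 2 it was 0.67 and 0.82, against 0.36 and 0.35. With the mouse as a block, which compares the muscles within each mouse, 4 of 8 were called. These were Col3a1, Col5a1 and Col5a3, higher in TA, and Col11a1, higher in soleus. That fit called 23.6% of all genes, 12.1% higher in soleus and 11.5% higher in TA, and 11 of the 23 members.

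Col1a1 and Col1a2 encode both chains of type I collagen, the main protein of tendon and fascia. Col1a1 (chromosome 11, 94936224 to 94953042) was at 2450, 9387, 1228, 1712 and 49.1 CPM in soleus and 1709, 1668, 453.1, 3347 and 180.1 CPM in TA. The highest soleus library was 191-fold above the lowest, and the highest TA library 18.6-fold, and without female 2 these folds were 7.65 and 7.39. The difference of 0.71 (SE 1.03, adjusted p = 0.691) lay inside the spread of either kind. Without soleus male 2, with TA of that mouse kept and no block, it was -0.15.
Col1a2 was at 944.9, 2449, 569.0, 688.0 and 33.1 CPM in soleus and 739.7, 770.3, 268.2, 1444 and 103.6 CPM in TA (0.28, SE 0.84, adjusted p = 0.859). Both type I genes were higher in soleus in the 3 males and higher in TA in the 2 females. The fit by sex gave Col1a1 1.77 (SE 1.18) in males and -1.003 (SE 1.42) in females, and the test of that difference did not pass (-2.77, SE 1.86, edgeR adjusted p = 0.772).

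Col3a1 and Col5a3 were higher in TA inside each mouse, while Col5a1 was so in 4 of 5 mice and Col5a2 in 3 of 5. Col3a1 (chromosome 1, 45311538 to 45349706), whose product forms thin fibrils and occurs with type I around muscle fibers, was at 901.7, 1759, 287.6, 822.4 and 37.7 CPM in soleus and 1988, 2099, 551.3, 1822 and 119.7 CPM in TA. All 5 mice were higher in TA, while the muscles overlapped widely because mice differed more than muscles did. The difference was -0.86 (SE 0.78, adjusted p = 0.489), and -0.996 (SE 0.18, adjusted p = 0.00204) with the mouse as a block. Without TA female 1, with soleus of that mouse kept and no block, it was -0.05.
Col5a3 (chromosome 9, 20770050 to 20815067), a rarer alpha 3 chain of type V, was at 25.7, 32.1, 15.98, 32.9 and 4.57 CPM in soleus and 55.3, 48.7, 34.7, 81.4 and 14.1 CPM in TA. It too was higher in TA in every mouse, and only TA of female 2 fell among the soleus values. The difference was -1.08 (SE 0.48, adjusted p = 0.131), and -1.08 (SE 0.21, adjusted p = 0.003) with the mouse as a block.

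Col5a1, the alpha 1 chain of type V that starts collagen fibrils, was higher in TA in 4 of 5 mice (-0.60, SE 0.52, adjusted p = 0.464, and -0.65, SE 0.21, adjusted p = 0.0442 with the block). Col5a2, its partner, differed by -0.37 (SE 0.51, adjusted p = 0.668) and was not called with the block either (-0.38, SE 0.19, adjusted p = 0.181). Col24a1, a minor fibrillar chain, differed by -0.40 (SE 0.62, adjusted p = 0.711). Col11a1 (chromosome 3, 114030540 to 114220718), a chain of cartilage fibrils, went the other way, with 31.6, 24.1, 12.3, 19.8 and 5.71 CPM in soleus and 10.1, 1.16, 2.31, 16.3 and 3.02 CPM in TA. It was higher in soleus in 5 of 5 mice, with overlap (1.48, SE 0.61, adjusted p = 0.109, and 1.57, SE 0.46, adjusted p = 0.0296 with the block). In female 2 that direction rests on a retained-intron transcript, Col11a1-203, with 5 counts in soleus and 0 in TA, while the protein-coding Col11a1-201 had 0 in soleus and 3 in TA. With protein-coding transcripts alone Col11a1 was not called with the block (1.42, SE 0.56, adjusted p = 0.0907). The other 3 fibrillar calls remained, Col5a1 only just (-0.63, edgeR adjusted p = 0.0499).

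**Figure D4:**
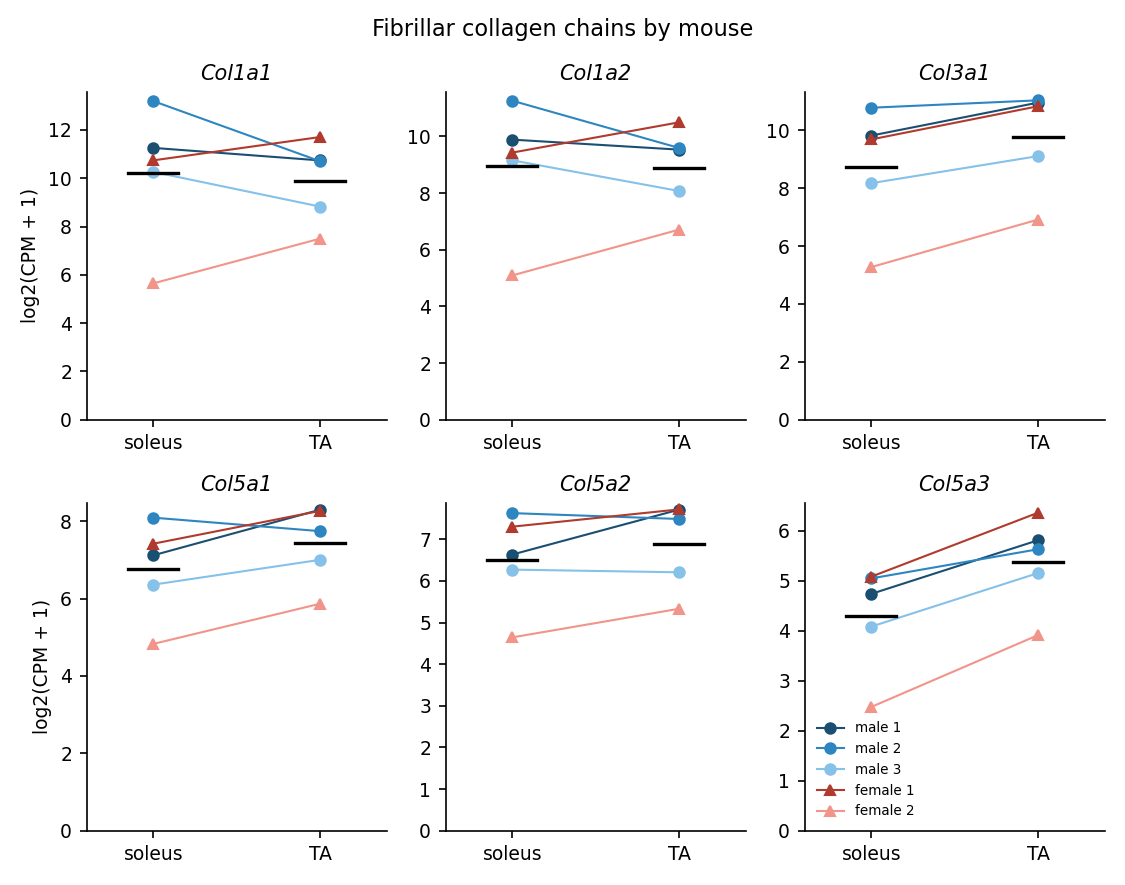
Levels of 6 fibrillar chains on a log2(CPM + 1) scale in soleus and TA, with a line for each mouse (circles male, triangles female) and a black bar for the mean of 5 libraries. Female 2 lies lowest in both muscles in every panel, the type I lines cross, and all 5 lines of Col3a1 and Col5a3 rise toward TA.

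Female 2 had the lowest level of all 8 tested fibrillar chains in soleus and of 7 in TA, a pattern described after the values were seen. It was lowest in both muscles for 7 of 8 (87.5%), against 11.1% of all tested genes. For basement membrane chains the same held for 4 of 8 (Col4a2 and Lamc1 among them), and for other chains for 2 of 7. Fibrillar chains held 16.4% of member counts in soleus and 29.6% in TA of this mouse, and 49.5% to 89.6% in the other 8 libraries. The summed stromal markers were 182.7 CPM in its soleus and 181.1 in its TA, against 243.9 to 399.0 in the other libraries, and tenocyte markers were 310.6 CPM in its soleus, against 880.6 to 1165 in the other soleus libraries. In TA the tenocyte markers did not follow, with 519.1 CPM in this mouse and 169.9 to 753.8 in the other 4. The summed level of 12 partner genes of the basement membrane, 2 of them at 0 in all libraries, was also lowest in both muscles of this mouse. It was 100.5 CPM in its soleus and 148.9 in its TA. The other libraries had 151.2 to 258.3 CPM in soleus and 168.8 to 272.2 in TA. Some other lists were lowest in 1 muscle of this mouse only. Macrophage markers were 249.0 CPM in its soleus, against 618.2 to 1013 in the other soleus libraries. In its TA endothelial markers were 352.1 CPM, against 590.6 to 915.1 in the other TA libraries. Smooth muscle and pericyte markers were 610.6 there, against 801.5 to 1199, and adipocyte markers 686.0, against 1788 to 3847. Satellite cell and Schwann markers were lowest in neither muscle. No gene of the stromal or tenocyte list was at 0 in all libraries. The part of these lists in the pattern was not tested. The fit without soleus of female 2 kept its TA library and had no block, so a mouse low in both muscles counted only in TA. Its differences are thus not differences within mice. They were 1.27 for Col1a1, 0.78 for Col1a2, -0.53 for Col3a1 and -0.78 for Col5a3. For Col5a1 the value was -0.32, for Col5a2 -0.11 and for Col24a1 -0.09, and none of these chains was called. Col11a1 was the 1 fibrillar chain called there (1.82, adjusted p = 0.0255), and the members called rose from 7 to 9. Without both libraries of this mouse 10 members and 2 fibrillar chains were called, Col5a3 (-1.02, adjusted p = 0.00668) higher in TA and Col11a1 (1.59, adjusted p = 0.0413) higher in soleus. The shares of all genes called in these fits are not given here, so the counts do not show that the members changed more than other genes.

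Other collagen chains were higher in soleus in 2 of 7 cases, Col23a1 and Col8a2, and in none were they higher in TA. Their median was 0.71, with 4 positive and 3 negative values. Col23a1 (chromosome 11, 51289920 to 51583918), a collagen that spans the cell membrane, was at 22.2, 36.1, 28.3, 61.9 and 48.0 CPM in soleus and 10.1, 13.9, 13.9, 10.5 and 10.1 CPM in TA. Every soleus library was above every TA library. The difference was 1.69 (SE 0.28, edgeR adjusted p = 0.000869), and it remained called in each of the 10 fits without 1 library, as did Col4a2, Col4a3, Col4a4 and Lama5.

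Col8a2 and Col8a1 encode the short chains of type VIII, which builds lattices beneath the endothelium of vessels and cornea. Col8a2 (chromosome 4, 126286793 to 126314330) was at 12.9, 6.69, 17.2, 23.7 and 3.43 CPM in soleus and 4.51, 1.16, 2.31, 4.65 and 5.03 CPM in TA. It was higher in soleus in 4 of 5 mice, female 2 being the exception (1.81, SE 0.55, edgeR adjusted p = 0.0332). The call rests on 67 counts and was lost in 7 of 10 fits without 1 library, with adjusted p up to 0.109 without soleus female 1.
Col8a1 differed by 0.71 (SE 0.33, adjusted p = 0.154). Col22a1, which sits at the junction of muscle fiber and tendon, was at 58.5, 25.4, 39.3, 64.6 and 3.43 CPM in soleus and 21.4, 18.5, 6.94, 23.3 and 13.1 CPM in TA. It was higher in soleus in 4 of 5 mice and not called (1.19, SE 0.54, adjusted p = 0.142), but without soleus of female 2 it was called (1.56, adjusted p = 0.0033). The summed tenocyte markers overlapped between the muscles, at 310.6 to 1165 CPM in soleus and 169.9 to 753.8 in TA, with 3 of 8 tested (Comp, Cilp2 and Cpxm2) higher in soleus, and their part in these values was not tested.

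The 3 tested type VI chains all had negative values and none was called. Col6a1, a chain mutated in Ullrich and Bethlem muscle disease, averaged 135.8 ± 71.0 CPM in the soleus libraries and 196.8 ± 114.0 CPM in those of TA (SD, n = 5 each), a difference of -0.56 (SE 0.47, adjusted p = 0.453). Col6a2 differed by -0.52 (SE 0.47, adjusted p = 0.488) and was higher in TA in 5 of 5 mice. Col6a3, with 67 counts, differed by -0.78 (SE 0.54, adjusted p = 0.357). Without soleus of female 2, but with its TA library kept and no block, the values of Col6a1 and Col6a2 were -0.30 and -0.26.

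**Figure D5:**
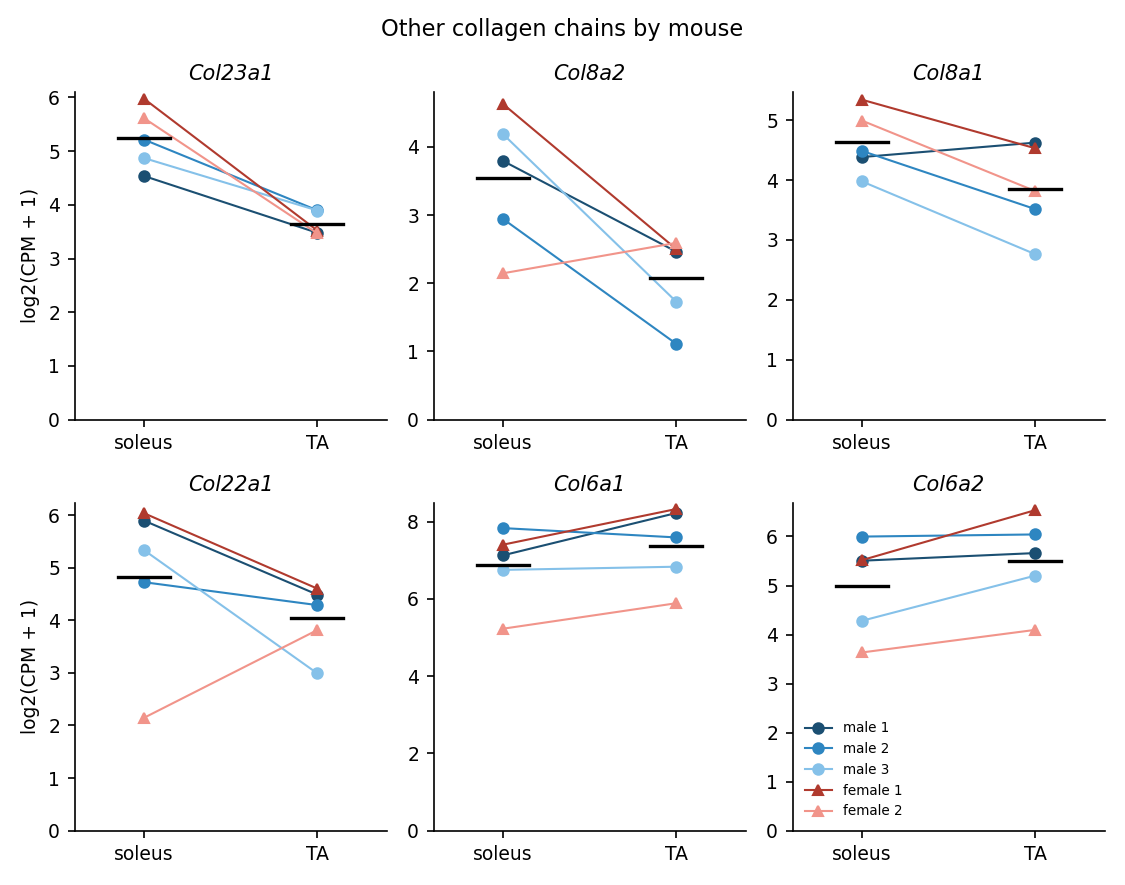
Levels of 6 other collagen chains on a log2(CPM + 1) scale in soleus and TA, with a line for each mouse (circles male, triangles female) and a black bar for the mean of 5 libraries. All 5 lines of Col23a1 fall from soleus to TA, and female 2 runs against the other 4 mice for Col8a2 and Col22a1.

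Chains below the filter had few counts. Those with at least 10 were Col4a1 (14), Lama3 (38), Lamb1 (17) and Lamb3 (45) of the basement membrane, and Col11a2 (11) and Col27a1 (14) of the fibrillar group. Among other chains they were Col12a1 (22), Col14a1 (14), Col15a1 (47), Col18a1 (34), Col25a1 (27), Col26a1 (28), Col28a1 (36) and Col6a6 (32). With no filter on low counts Col6a6, a type VI chain, was called (-2.59, edgeR adjusted p = 0.00721), in a fit that also called Col1a1 and Col6a1. It had 4 counts in soleus and 28 in TA. Col15a1, a basement membrane zone collagen of muscle and capillaries, had 13 and 34, and Col28a1 had 10 and 26. The other 18 members had under 10 counts, including Col4a5, Col4a6, Col13a1, Col17a1 and Col7a1 at 0.

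Sex was compared within each muscle. edgeR called 0 of 23 members in soleus (2 at an unadjusted p under 0.05, Col23a1 and Col4a4), against 0.547% of all genes. In TA it called 0 (0 at an unadjusted p under 0.05), against 0.645%. The test of whether the tissue difference depends on sex also called 0 members (1 at an unadjusted p under 0.05, Col23a1), against 0% of all genes. DESeq2 called 0 in all 3 comparisons. Col23a1 differed between the muscles by 1.18 (SE 0.29) in males and 2.40 (SE 0.35) in females, and the difference of these values did not pass (1.22, SE 0.46, edgeR adjusted p = 0.709).

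Genes that work with these chains showed single changes in both directions. Of 5 tested partners in the basement membrane, Smoc2, a calcium-binding matrix protein, was higher in TA (-1.71, SE 0.37, edgeR adjusted p = 0.00512). Nid1, which ties laminin to type IV collagen, was not called (-0.41, SE 0.30, adjusted p = 0.389), nor was Ntn4, a netrin that binds laminin (0.33, SE 0.24, adjusted p = 0.367).
Of 11 receptors 2 were higher in soleus and 2 in TA. Bcam, a receptor of the laminin alpha 5 chain, was higher in soleus (2.29, SE 0.20), the muscle in which Lama5 was lower, and Itga9, an integrin alpha chain, was as well (1.04, SE 0.27). Itga1, the collagen-binding integrin alpha 1 chain with preference for type IV, was higher in TA (-1.30, SE 0.25), as was Sgcb, beta-sarcoglycan of the dystrophin complex (-0.59, SE 0.16). Dmd, dystrophin, was not called (0.19, SE 0.12, adjusted p = 0.290).

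In collagen folding and processing 1 of 12 tested genes was higher in soleus and 1 in TA. P3h2, a prolyl 3-hydroxylase that modifies type IV collagen among others, averaged 94.4 ± 12.6 CPM in the soleus libraries and 5.60 ± 2.45 CPM in those of TA (SD, n = 5 each). Its libraries did not overlap (4.04, SE 0.22, edgeR adjusted p = 1.25e-07). Sec23a, a coat protein needed to export procollagen, was higher in TA (-1.04, SE 0.19), and P4hb, a subunit of the prolyl 4-hydroxylase, was not called (0.44, SE 0.21, adjusted p = 0.156).
Among 11 fibril-associated genes Thbs2 (1.88, SE 0.34) and Comp (2.81, SE 0.56), both of the thrombospondin family, were higher in soleus and none was higher in TA. Fmod, a proteoglycan that guides fibril growth, was not called (1.47, SE 0.51, adjusted p = 0.0592). Of 8 genes of matrix breakdown 3 were higher in TA and none in soleus. They were Mmp15, a membrane-bound protease (-0.84, SE 0.23), and the protease inhibitors Timp3 (-0.87, SE 0.18) and Timp4 (-1.31, SE 0.34).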

How the data were processed

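The authors deposited 1 table of raw counts for each library, with Ensembl transcripts in rows and whole numbers of at least 1. Per the labels, 10 ng of total RNA entered a Takara SMART-Seq Stranded preparation. The submitters' processing notes name bcl2fastq, Trimmomatic 0.32, FastQC and the build GRCm38.p4; the aligner and counter are not given in the sources used here. Transcripts were matched to GENCODE M21 (40359 of 40414) and summed to genes. R 4.3.3 with edgeR 4.0.16 (TMM, filterByExpr over the 4 sex-by-muscle groups) tested tissue with sex as a covariate, and sex and the interaction in a model of 4 group means. DESeq2 1.42.0 was an alternative, beside other scalings, filters, leaving out each library and the mouse as a block. The edgeR steps were also run on simulated counts. These were drawn for each library apart with no mouse effect, so that run cannot check the test for libraries paired by mouse. Plots and tables used Python 3.11.15, pandas 2.3.3 and matplotlib 3.10.9.

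Pairing was checked on deviations from the tissue and sex means over 5115 genes. Same-numbered libraries correlated with r of 0.183, 0.229 and 0.239 in males and, with 1 shared value by construction, 0.285 in females, all over the limit of 0.1. Other male pairs were at -0.0705 or below. Deviations within a group sum to 0, so a positive value for 1 pair pulls the others below 0, and these values are no separate evidence of pairing. The names of the deposited tables also give both muscles of a number 1 shared code.

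Members and lists were chosen with earlier results of these data known. Named members were those called, those with an unadjusted tissue p under 0.05, the 4 with the highest level in each class, partners of called chains, and untested members with at least 10 counts. From other lists, called genes and up to 3 with the highest level were named.

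Calls on marker lists not given above were, higher in soleus and in TA: stromal 1 and 1 of 8 tested, Schwann cell 0 and 0 of 1, satellite cell 1 and 0 of 2, macrophage 0 and 0 of 4, adipocyte 3 and 0 of 3.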

Additional observations from a re-analysis of the deposited data

Results flagged for a closer look

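Col1a1 in soleus was the 1 result flagged among 46 tests (23 members in each muscle, where chance flags about 1 group in 20). The level of soleus male 2, 9387.3 CPM, lay far above the next soleus library at 2450.1 CPM, and that gap was 0.743 of the whole range, above the critical value of 0.71 for 5 libraries. TA of the same mouse was at 1668 CPM.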

How the results depend on the processing

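Counts of called members were within 1.5 times of those reported under upper-quartile scaling, DESeq2 size factors, DESeq2's Wald test, a mean of at least 5 CPM, protein-coding transcripts only and library sizes without Gm20594 and Cep295. With no filter on low counts, 14 members were called for tissue (5 fibrillar, 5 other), 2 for the interaction and 3 for sex in soleus. Among them was Col1a1 for tissue (0.67, edgeR adjusted p = 0.01), against an adjusted p of 0.691 with the filter. The share of all genes called in that fit is not given here, so the 14 cannot be read as more changes among the members. With the mouse as a replicate block the counts were 11 members and 4 fibrillar chains, and no other class count changed. With the block and protein-coding transcripts only, added after seeing the data, 3 fibrillar chains were called. Without both libraries of female 2, chosen after seeing the data, 2 fibrillar chains were called. Over fits without 1 library, fibrillar calls ranged from 0 to 1 (1 without TA female 1, soleus female 2 or TA female 2). Other calls ranged from 1 to 3 there and basement membrane calls from 4 to 5. Without soleus female 1 the lone female soleus library was that of female 2, assumed to vary like the other groups. Sex in soleus then compared that 1 library with the males, so no calls are given. Its female minus male differences included -6.47 for Col1a1, -5.31 for Col1a2, -6.24 for Col4a4 and -3.54 for Col22a1. The cause was not tested.

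Signs that turned were all of genes that were not called. Over fits without 1 library Col1a1 ranged from -0.15 (without soleus male 2) to 1.92, Col1a2 from -0.29 (without soleus male 2; -0.08 without TA male 3) to 1.33, Col24a1 from -0.85 to 0.048 (without TA male 1), Col5a2 from -0.79 to 0.073 (without TA female 1) and Lama4 from -0.33 to 0.11 (without TA female 1; 0.10 without TA male 2 and 0.073 without soleus male 3). Of the 55 members 32 had too few counts to be tested, and whether more depth would change that was not tested.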

Other observations

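The balance of some chains within a library also differed between the muscles. These ratios of counts were chosen after their values were seen and have no test; since each compares the same gene pair in both muscles, transcript length does not enter. Col1a1 had 2.72, 5.34, 4.27, 2.08 and 1.30 counts for each count of Col3a1 in soleus of males 1, 2 and 3 and females 1 and 2. In TA the ratio was 0.860, 0.795, 0.822, 1.84 and 1.504. It was higher in soleus in 4 of 5 mice, all but female 2.

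The laminin ratios formed here were higher in TA in every mouse. Each sets a chain called higher in TA over a chain that was not called, so the direction restates the differences above. Lamb2 had 0.788 to 1.47 counts per count of Lamc1 in soleus (median 0.955) and 0.989 to 1.68 in TA (median 1.09), lower in soleus in 5 of 5 mice. Lama5 had 0.405 to 1.10 per count of Lama2 in soleus (median 0.5) and 0.881 to 1.78 in TA (median 1.02), also lower in soleus in 5 of 5 mice. Lamb2 was also among the steadiest genes within a muscle, with its highest library 1.31-fold above its lowest in soleus and 1.13-fold in TA.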
